A study of Homo sapiens with 6 samples.

Results

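Interferons are secreted proteins by which a cell that senses foreign nucleic acid warns itself and its neighbours. Sensors such as RIG-I switch on the transcription factors IRF3, IRF7 and NF-kappa B, which act on the gene of interferon beta (IFNB1) and on the genes of the lambda interferons (IFNL1, IFNL2 and IFNL3). Interferon beta binds the receptor pair IFNAR1 and IFNAR2, found on nearly all cells, whereas the lambda interferons bind IFNLR1 together with IL10RB and act mainly on epithelia such as the gut lining. Both receptors signal through JAK kinases, STAT factors and IRF9 to interferon-stimulated genes, among them the chemokines CXCL10 and CXCL11, while CCL5 is a chemokine gene that IRFs and NF-kappa B act on directly.

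The question addressed here was which interferon ligand, receptor chain and chemokine RNA could be measured in HCT116 colorectal cancer cells while interferon-stimulated genes were high. The members are 9 genes of the 19871 gene symbols listed, chosen by name: the ligands IFNB1, IFNL1, IFNL2 and IFNL3, the receptor chains IFNLR1 and IL10RB, and the chemokines CXCL10, CXCL11 and CCL5. Together they have 26 of the 92866 mRNA transcripts in the tables. Strand-marked RNA libraries were made from 3 groups of 2 libraries each: a negative control (NC), cells given the long non-coding RNA GAS5 and cells given YAP-specific siRNA (siYAP). Per the labels, GAS5 was delivered as a plasmid and YAP was targeted by siRNA, both by transfection. What the NC cells received is not stated, and the labels list NC, GAS5 and siYAP alike under siRNA. A response to plasmid transfection and a response to GAS5 RNA therefore cannot be told apart in these data.

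Values are means that the authors took over the libraries of each group, so no spread between libraries is known and no new test could be run. The authors' own p-values and FDR were not used. Intervals given with counts are 95% Poisson or exact binomial intervals on the counts behind a mean, and they cover counting error only. A gene was taken as past 2-fold when its log2 fold change, after TMM scaling and a prior count of 2, was at least 1 in either direction. Only gene sums of at least 10 mean counts in NC or in the treated group were considered. Depth was 25521577 to 27206123 mean counts per group. A count of 0 over the libraries of a group was taken to allow up to 3 counts, which is 1.5 mean counts or 0.0551 to 0.0588 CPM. This set limit is lower than the end of the 95% Poisson interval of a 0, which is 1.84 mean counts. Folds against 0 would be smaller with that end. YAP1, the target of the siRNA, had mean counts of 3480 (NC), 2679 (GAS5) and 1444 (siYAP), with log2 fold changes of -0.26 and -1.18 for the treated groups. GAS5 itself has no value in these mRNA tables. Of 8 colon epithelium markers, 6 had at least 10 mean counts, KRT8, KRT18, KRT19, EPCAM, CDH1 and CDX2, while CDX1 was listed at 0 in every group and VIL1 at 0, 6 and 1 mean counts in NC, GAS5 and siYAP.

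The lambda ligand genes lie in 1 cluster on chromosome 19 (GENCODE 29, GRCh38): IFNL3 at chr19:39243553-39245129 on the minus strand, IFNL2 at chr19:39268514-39270092 and IFNL1 at chr19:39296325-39298673, both on the plus strand. Between IFNL3 and IFNL2 lie 23384 bases, and between IFNL2 and IFNL1 26232 bases. IFNB1 stands apart at chr9:21077105-21077963, as a single exon of 859 bases. Promoter sequences were taken from RefSeq (GRCh38.p14) for 8 of the 9 genes, with 2 start sites for IFNL3. CCL5 was not matched. In the 250 bases before each start, matches on either strand were sought to the IRF element AANNGAAA, to the interferon-stimulated response element (ISRE) core, which is GAAA, any 2 bases, then GAAA, and to a kappa B element, which is GGGA, any 2 bases, then TTCC. Every ISRE core also holds an IRF element. Of all 35116 RefSeq promoters, 20.3% held the IRF element, 3.02% the ISRE core and 1.40% the kappa B element in the same window.

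The stretches that hold the matches are shown for IFNB1, IFNL1, IFNL2 and CXCL10, because these genes are listed at 0 outside the GAS5 group. CXCL11 is so too, but is not printed because 127 of its 250 bases lie in an exon of the gene in GENCODE 29. Sequences are printed 5′ to 3′ on the strand of the gene, and capitals mark bases inside a match. They lie at chr9:21077987-21078043 (IFNB1), chr19:39296181-39296324 (IFNL1), chr19:39268208-39268345 (IFNL2) and chr4:76023653-76023730 (CXCL10).
IFNB1: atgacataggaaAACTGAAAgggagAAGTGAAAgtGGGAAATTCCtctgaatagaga
IFNL1: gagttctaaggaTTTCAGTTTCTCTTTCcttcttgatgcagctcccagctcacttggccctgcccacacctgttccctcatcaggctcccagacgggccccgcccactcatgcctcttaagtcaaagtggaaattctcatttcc
IFNL2: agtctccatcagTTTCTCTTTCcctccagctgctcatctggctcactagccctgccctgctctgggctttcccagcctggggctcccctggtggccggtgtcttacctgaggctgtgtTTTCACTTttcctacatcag
CXCL10: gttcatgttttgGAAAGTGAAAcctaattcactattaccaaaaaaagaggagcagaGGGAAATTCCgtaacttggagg

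IFNB1 held 2 IRF elements and 1 kappa B element between positions -89 and -57, counted from the start. IFNL1 held 2 overlapping ISRE cores at the far end of the window and an IRF element at positions -74 to -67, which is not printed because GENCODE 29 places it inside the first exon. IFNL2 held 1 ISRE core and 1 further IRF element. The upstream start of IFNL3 held the same pair as IFNL2, and 249 of the 250 bases were identical between them. No match was found before the other IFNL3 start. CXCL10 held an ISRE core and a kappa B element, and CXCL11 held 2 IRF elements and 1 kappa B element but no ISRE core. The promoters of the receptor chains IFNLR1 and IL10RB held no match in the window. For IFNLR1 the window (chr1:24187290-24187539, minus strand) lies inside the gene of GENCODE 29, which begins upstream at base 24187959. The sequence before that upstream start was not searched. The matches are a description of the letters and not of factor binding.

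**Figure D1:**
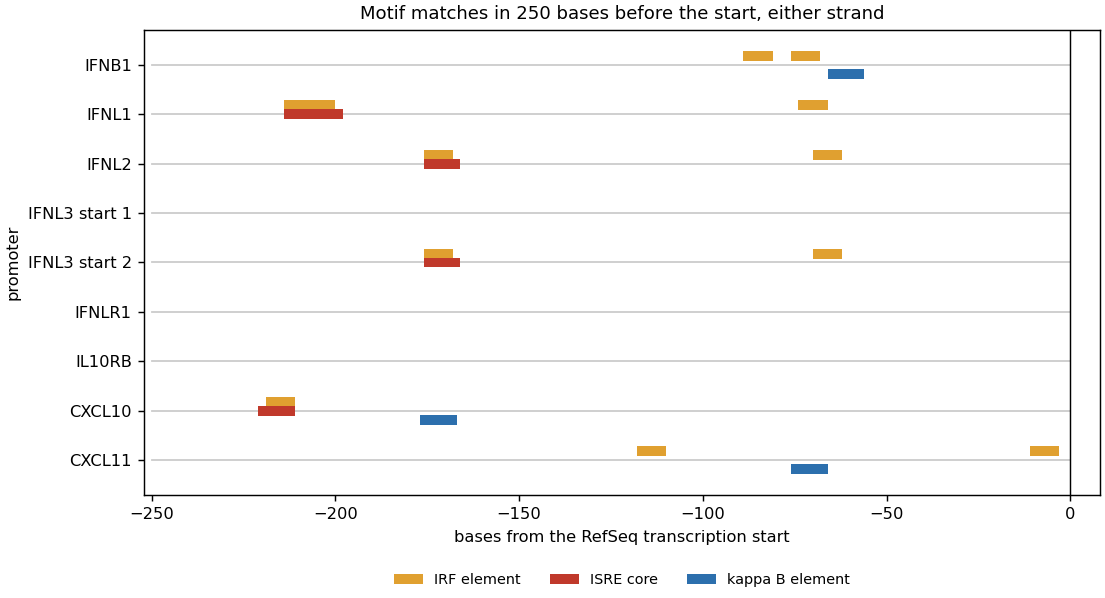
Matches to the IRF element (orange), the ISRE core (red) and the kappa B element (blue) on either strand of the 250 bases before each RefSeq start (x axis, bases from the start; y axis, promoter). The promoters of the ligands, CXCL10 and CXCL11 hold at least 1 IRF element, except the IFNL3 start with no match, and the IFNLR1 and IL10RB promoters hold none. CCL5 is absent because no promoter was matched for it.

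Among the ligands, lambda interferon RNA was present in the GAS5 group and was not detected on annotated transcripts in NC or siYAP. Per length, with reads split between IFNL2 and IFNL3 as listed, IFNL1 stood highest, and IFNB1 was near the limit of detection. IFNL1 had 0 mean counts in NC, 31.5 in GAS5 (24.2 to 40.3, from 63 counts) and 0 in siYAP. It was at least 17.5-fold higher in GAS5 than in NC, taking the low end of the GAS5 interval after scaling over the NC limit of 1.5 mean counts. The GAS5 interval lies wholly above that limit, which holds for NC and siYAP alike.

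IFNL2 was listed at 0 in NC, at 12.5 mean counts in GAS5 (8.09 to 18.5, from 25 counts) and at 0 in siYAP. GAS5 was at least 5.85-fold higher than NC, computed in the same way. The single Ensembl transcript of each gene, ENST00000333625 for IFNL1 and ENST00000331982 for IFNL2, carried all of these counts. IFNL1 and IFNL2 passed the low-count minimum only through their GAS5 value, so that passing it already required a difference.

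IFNL3 gave a different picture by gene sum and by transcript. Summed over its 4 transcripts, IFNL3 had mean counts of 55 in NC, 68.5 in GAS5 and 58.5 in siYAP. On the log2 scale the sum differed from NC by 0.42 in GAS5 (1.35-fold, 1.04 to 1.75) and 0.17 in siYAP (1.13-fold, 0.862 to 1.48), so the sum did not reach 2-fold in either group. Nearly all of the NC sum came from TCONS_00075061, a transcript assembled from the reads, with 49.0, 54.3 and 50.2 mean counts in NC, GAS5 and siYAP. A further assembled transcript, TCONS_00075062, had 6.015, 2.23 and 8.345 mean counts in the same order. The annotated transcript ENST00000613087 had 0 mean counts in NC, 12 in GAS5 (7.69 to 17.9, from 24 counts) and 0 in siYAP, and was at least 5.56-fold higher in GAS5 at the low end of its interval. The other Ensembl transcript, ENST00000413851, was listed at 0 in every group.

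The assembled transcript was also longer than the annotated ones. Its count, FPKM and the depth together imply a length of 1792 bases in NC, against 734 bases for ENST00000613087 in GENCODE 29 and 1577 bases for the whole IFNL3 locus from first to last base. The same calculation gave 875 bases for IFNL1 and 754 for IFNL2, whose annotated transcripts have 857 and 737 bases. Where the assembled transcript maps is not given in the tables, so its counts cannot be assigned to the lambda interferon reading frame. The IFNL3 sum and the Ensembl value are therefore both given.

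**Figure D2:**
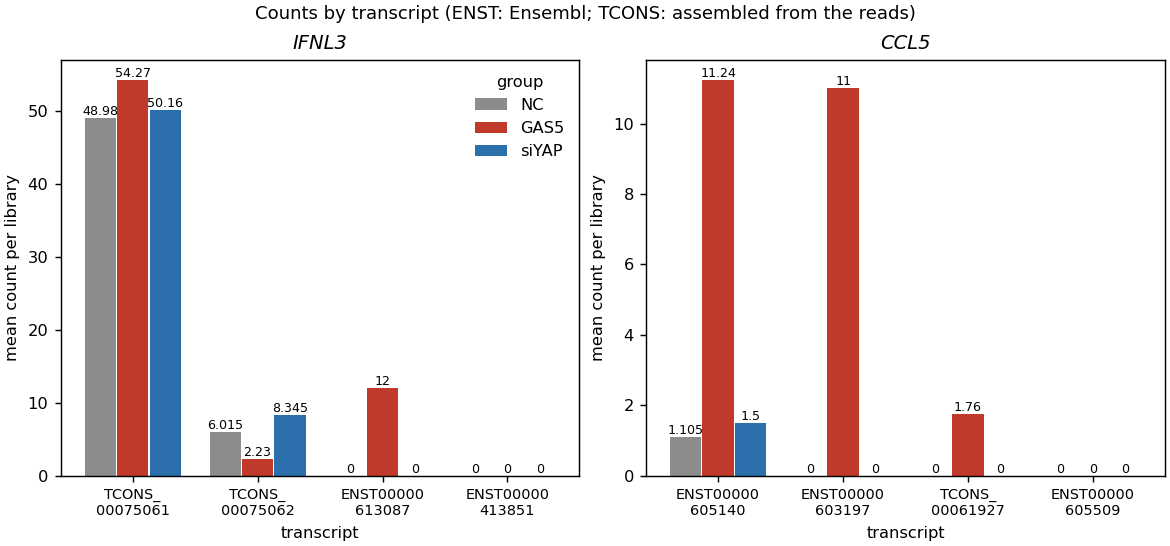
Mean counts per library (y axis) of every listed transcript of IFNL3 and CCL5 (x axis) in NC (grey), GAS5 (red) and siYAP (blue), with the value printed above each bar. The assembled IFNL3 transcript TCONS_00075061 has 49 to 54.3 mean counts in all groups, while ENST00000613087 has 12 in GAS5 and 0 in NC and siYAP. The plot of CCL5 shows its GAS5 counts split between ENST00000605140 and ENST00000603197.

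IFNL2 and IFNL3 are near-identical genes, so the split of reads between them is uncertain. Their coding sequences of 600 bases differ at 11 positions (98.2% identity), whereas IFNL1 shares 74.8% of aligned positions with either. Of all stretches of 50 bases in the IFNL2 transcript, 68.0% occur in no other gene, and 94.8% of stretches of 100 bases do. For the IFNL3 transcript the shares were 67.0% and 94.8%. For IFNL1 and IFNB1 they were 100% at both lengths. The 120 coding bases in which the pair differ most, positions 359 to 478 of the coding sequence, are shown to make clear how few bases tell their reads apart. Capitals mark the 4 differing bases.
IFNL2: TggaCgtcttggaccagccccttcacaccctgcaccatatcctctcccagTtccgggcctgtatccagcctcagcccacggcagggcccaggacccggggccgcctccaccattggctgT
IFNL3: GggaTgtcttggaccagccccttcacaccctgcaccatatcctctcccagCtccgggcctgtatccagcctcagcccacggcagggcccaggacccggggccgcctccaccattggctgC

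IFNB1 had 0 mean counts in NC, 2.5 in GAS5 (0.812 to 5.83, from 5 counts) and 0 in siYAP. The low end of the GAS5 interval lies below the 1.5 mean counts that the zeros allow, so that a difference was not detectable at this depth and no fold is given. The gene did not reach the minimum of 10 mean counts in any group. Per length, in FPKM, IFNL1 stood at 1.41 in GAS5, IFNL2 at 0.65, the annotated IFNL3 transcript at 0.625 and IFNB1 at 0.115. IFNL1 was above IFNL2 by 2.17 times (1.35 to 3.60), above IFNL3 by 2.26 times (1.39 to 3.78) and above IFNB1 by 12.3 times (4.99 to 39.1). IFNL2 and IFNL3 could not be ordered (ratio 1.04, 0.570 to 1.90). The ratios of IFNL1 to IFNL2 and to IFNL3 take the split of reads between IFNL2 and IFNL3 as listed. That split is uncertain, and the intervals do not cover it.

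Summed over annotated transcripts, the lambda ligands had 0 mean counts in both NC and siYAP and 56 in GAS5, at least 33.4-fold higher in GAS5 at the low end of its interval. The other 18 interferon ligand genes, the alpha family with IFNW1, IFNE, IFNK, IFNG and IFNL4, had 3.5, 11 and 2.5 mean counts in all. Of these, 12 were listed at 0 in every group and none reached 10 mean counts. IFNE, an epithelial interferon, had 3, 6.5 and 1.5 mean counts in NC, GAS5 and siYAP. IFNA5 had 2.5 and IFNA2 1.5 mean counts in GAS5, and both were at 0 in NC and siYAP. In the GAS5 group, 112 of the 139 counts on interferon ligands fell on the lambda ligands (80.6%, exact binomial interval 73.0 to 86.8%) and 63 on IFNL1 (45.3%, 36.9 to 54.0%), in counts not corrected for length. Both shares leave out the assembled IFNL3 transcripts, which had 56.5 mean counts in GAS5, and the IFNL1 share would be lower with them.

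**Figure D3:**
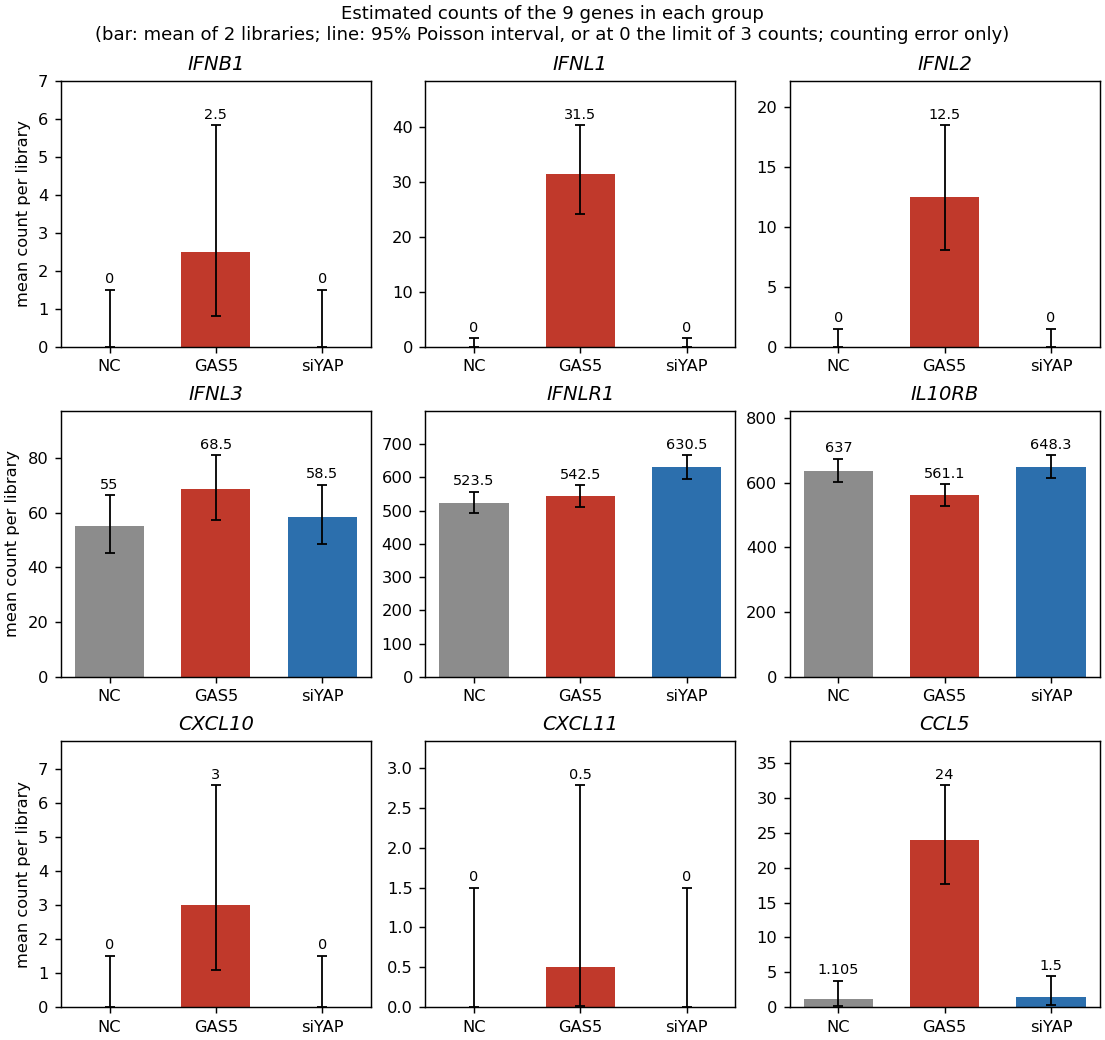
Mean counts per library (y axis, linear from 0, a scale of its own in each panel) of the 9 genes in NC (grey), GAS5 (red) and siYAP (blue). Bars are the authors' means of 2 libraries and lines are 95% Poisson intervals of the counts behind them, or the limit of 1.5 mean counts at 0. IFNL1, IFNL2 and CCL5 stand above NC and siYAP in GAS5, and the receptor chains IFNLR1 and IL10RB have 523.5 to 648 mean counts in every group.

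Both chains of the lambda receptor were present in every group and differed little between them. IFNLR1, the chain particular to the lambda interferons (chr1:24154157-24187959, minus strand), had 523.5 mean counts in NC (492 to 556), 542.5 in GAS5 (511 to 576) and 630.5 in siYAP (596 to 666). Its log2 fold change was 0.17 in GAS5 (1.12-fold, 1.03 to 1.23) and 0.35 in siYAP (1.28-fold, 1.18 to 1.39), both short of 2-fold. In order of mean counts, the siYAP interval lay above those of GAS5 and NC, which overlapped each other.

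Most IFNLR1 counts lay on ENST00000327535, with 451, 480 and 567 mean counts in NC, GAS5 and siYAP. The shorter ENST00000327575 had 72.0, 62.1 and 59.8. Further IFNLR1 transcripts had under 2 mean counts in siYAP and 0 elsewhere, or 0 in every group. IL10RB, the chain shared with the receptors of IL-10, IL-22 and IL-26 (chr21:33266358-33310187, plus strand), had mean counts of 637 in NC, 561 in GAS5 and 648 in siYAP. Against NC it stood at -0.06 on the log2 scale in GAS5 (0.956-fold, 0.881 to 1.04) and 0.11 in siYAP (1.08-fold, 0.999 to 1.17), and both intervals hold 1. On Ensembl transcripts alone it was 1.09-fold in siYAP (1.01 to 1.18), an interval that does not hold 1. Its main transcript ENST00000290200 carried 97.4 to 98.8% of the counts.

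Only 11.9% of the 50-base stretches of that IL10RB transcript occur in no other gene, because the read-through gene AP000295.1 spans 30803 bases of the locus on the same strand. AP000295.1 was listed with 0.61, 4.705 and 5.46 mean counts in NC, GAS5 and siYAP. Per length, IL10RB stood above IFNLR1 by 2.17 times in NC (2.00 to 2.36), 1.93 times in GAS5 and 1.95 times in siYAP, in FPKM summed over transcripts. The 3 other ligands that use IL10RB, IL10, IL22 and IL26, were listed at 0 in every group.

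Among the chemokines, CCL5 was past 2-fold in GAS5, while CXCL10 and CXCL11 were at or near the limit of detection in all groups. CCL5, which attracts T cells and monocytes (chr17:35871491-35880793, minus strand), had 1.105 mean counts in NC, 24 in GAS5 (17.7 to 31.8) and 1.5 in siYAP. With 2.21 counts behind the NC mean, the ratio of GAS5 to NC was 23.6 with a counting interval from 6.52 to 173, and the log2 fold change with the prior count was 3.18. NC and siYAP were both at or under the limit of 3 counts, so no fold was taken between them. CCL5 too passed the low-count minimum only through GAS5.

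The CCL5 counts in GAS5 were shared by ENST00000605140, with 1.105, 11.2 and 1.5 mean counts in NC, GAS5 and siYAP, and ENST00000603197, with 0, 11 and 0. With ENST00000605140 alone, the log2 fold change was 2.19. Of the 50-base stretches of ENST00000605140, 82.4% occur in no other gene, and the rest are shared with 288 other genes. The antisense gene AC015849.1 overlaps all 9303 bases of the CCL5 locus on the opposite strand.

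CXCL10, which attracts T cells through CXCR3 (chr4:76021117-76023497, minus strand), had 0, 3 and 0 mean counts in NC, GAS5 and siYAP. The interval of the GAS5 mean, from 1.10 to 6.53 on 6 counts, reaches below the 1.5 mean counts that the zeros allow, so no fold is given. The exact binomial interval of the ratio of GAS5 to NC had its low end at 0.35 on the log2 scale. That interval covers counting error only, so a difference rests on very few counts. CXCL11, a ligand of the same receptor 10184 bases away, had 0.5 mean counts in GAS5, a single count, and 0 in the other groups, so that no fold was taken. CCL5 stood above CXCL10 in GAS5 by 6.55 times per length (2.78 to 18.8, FPKM of annotated transcripts). ART3 overlaps both CXCL10 and CXCL11 on the opposite strand and was listed at 0 in every group.

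Receptors of these chemokines were mostly low. CXCR3, CCR3 and ACKR1 were listed at 0 in every group, CCR1 had 3, 0.5 and 0 mean counts, and ACKR3 had 0.5 in siYAP alone. ACKR2, a decoy receptor, had 11, 6 and 10.5 mean counts in NC, GAS5 and siYAP (log2 fold change -0.61 in GAS5).

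Counted together, 6 of the 9 genes had at least 10 mean counts in NC or GAS5, and 3 of them, IFNL1, IFNL2 and CCL5, were past 2-fold higher in GAS5. Among all 13449 gene sums in that comparison, 2.51% were past 2-fold higher and 0.996% lower. Because these 3 genes entered through GAS5, the share says nothing of the members as a set. Of the 3 members with at least 10 mean counts in NC, IFNL3, IFNLR1 and IL10RB, 0 were past 2-fold, against 1.11% higher of 13186 such genes. In siYAP, 0 of 3 members considered were past 2-fold in either direction, against 1.19% higher and 1.35% lower of 13357 gene sums. Both comparisons share the NC means.

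Of the 26 transcripts of the members, 8 were above 0 in GAS5 only, against 4553 of all 92866 (4.90%). They were 1 each of IFNB1, IFNL1, IFNL2, IFNL3, CXCL10 and CXCL11 and 2 of CCL5. The CXCL11 transcript rests on 1 count. Members were chosen with earlier results of these data known, so this share too says nothing of the members as a set. Genes at 0 in NC and siYAP with at least 10 mean counts in GAS5 numbered 9 of all 19871, a count chosen after the values were seen. GPR126 stood highest with 72.72 mean counts, followed by IFNL1 with 31.5. The others, in falling order, were TMEM110-MUSTN1, FAM58A, AC139530.2, MX2, AP002748.4, IFNL2 and TNF. The reverse pattern, above that level in siYAP alone, was met by 2 genes, and in NC alone by 0.

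The genes that sense nucleic acid and induce the ligands were partly higher in GAS5. Of 21 listed genes, 18 had enough counts, and 5 were past 2-fold higher in GAS5 (median log2 fold change 0.21, against 0.00134 over all genes), while 0 were past 2-fold in siYAP (median 0.13). Over all gene sums considered, 2.51% were past 2-fold higher and 0.996% lower in GAS5, and 1.19% and 1.35% in siYAP. These shares stand beside every list below. The lists were chosen with earlier results of these data known. JUN, a subunit of the AP-1 factor that acts at the IFNB1 promoter, had 391, 2256 and 595.5 mean counts in NC, GAS5 and siYAP (log2 fold change 2.64 in GAS5). IRF7, which amplifies interferon induction, had 300.0, 1386 and 351.5 mean counts (2.32). The RNA sensors IFIH1 (MDA5) and DDX58 (RIG-I) stood at 2.09 and 2.07 on the log2 scale in GAS5, with 236 and 513 mean counts in NC. Of the other listed genes, the kinase gene TBK1 was at 0.10 and IRF3 at 0.02 in GAS5, named here although outside the naming rule.

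Below the receptors, 3 of 9 listed genes were past 2-fold higher in GAS5 and 1 in siYAP. Among all 13186 genes with at least 10 mean counts in NC, 1.11% were so in GAS5 and 0.561% in siYAP. USP18, a brake on the type I receptor, had 252, 821.5 and 215 mean counts in NC, GAS5 and siYAP (log2 fold change 1.81 in GAS5). IRF9, the part of the interferon-induced factor complex that recognises the ISRE, stood at 1.44 in GAS5. The gene past 2-fold in siYAP was SOCS1, an inhibitor of JAK kinases, with 63, 102 and 143.5 mean counts (0.79 in GAS5 and 1.25 in siYAP).

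The interferon-stimulated genes, which lie downstream of either receptor, were high in GAS5. Of 24 listed genes, all had at least 10 mean counts in NC or GAS5, and 22 were past 2-fold higher (median 3.01). Of the 19 with at least 10 mean counts in NC, 17 were past 2-fold (median 2.89). The shares over all genes were 2.51% of gene sums considered and 1.11% of those with at least 10 mean counts in NC. In siYAP, 0 of 19 were past 2-fold (median 0.14). OAS1, whose product activates RNase L, had 21, 644.5 and 22 mean counts in NC, GAS5 and siYAP (log2 fold change 4.93 in GAS5). IFI27, IFI44 and IFIT1 stood at 4.21, 4.02 and 3.92 in GAS5. Per length, IFIT1, an antiviral protein that binds RNA, stood at 61.9 FPKM in GAS5, against 2.69 FPKM for the annotated lambda transcripts together.

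Other receptor chains of the same class differed little. Of 9 listed, 8 had enough counts, with 0 past 2-fold higher and 1 lower in GAS5 (median 0.04) and 0 in siYAP (median -0.02). The lower one was IL20RB, a chain of the receptors of IL-19, IL-20 and IL-24, with 242.5, 74 and 233.5 mean counts (-1.57 in GAS5). IL10RA had 54, 92 and 58.5 mean counts (0.86), IL20RA stood at 0.71 and IL22RA1 at 0.39 in GAS5. The interferon beta receptor chains, named here although outside the naming rule, were also present in every group. IFNAR1 had 1047, 905.5 and 932 mean counts in NC, GAS5 and siYAP (-0.09 in GAS5). IFNAR2 had 569.9, 474.7 and 539.7 (-0.14).

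Of 43 other chemokine genes, 26 were listed at 0 in every group and 5 had enough counts in NC or GAS5, of which 1 was past 2-fold higher (median 0.52). This was CXCL8, a neutrophil attractant and NF-kappa B target, with 57.5, 366.5 and 126.5 mean counts (log2 fold change 2.75 in GAS5 and 1.19 in siYAP). CXCL1, CXCL3 and CXCL16 stood at 0.81, 0.52 and 0.20 in GAS5. CXCL9, the third CXCR3 ligand, was listed at 0 in every group. Of 12 NF-kappa B target genes, 11 had enough counts and 3 were past 2-fold higher in GAS5 (median 0.47), against 0 of 10 in siYAP (median 0.29). Over all gene sums considered, 2.51% were past 2-fold higher in GAS5 and 1.19% in siYAP. TNF had 0, 10 and 0 mean counts, and passed the minimum only through GAS5. TNFAIP3 and RELB stood at 1.87 and 1.39, and NFKBIE was at 0.66.

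**Figure D4:**
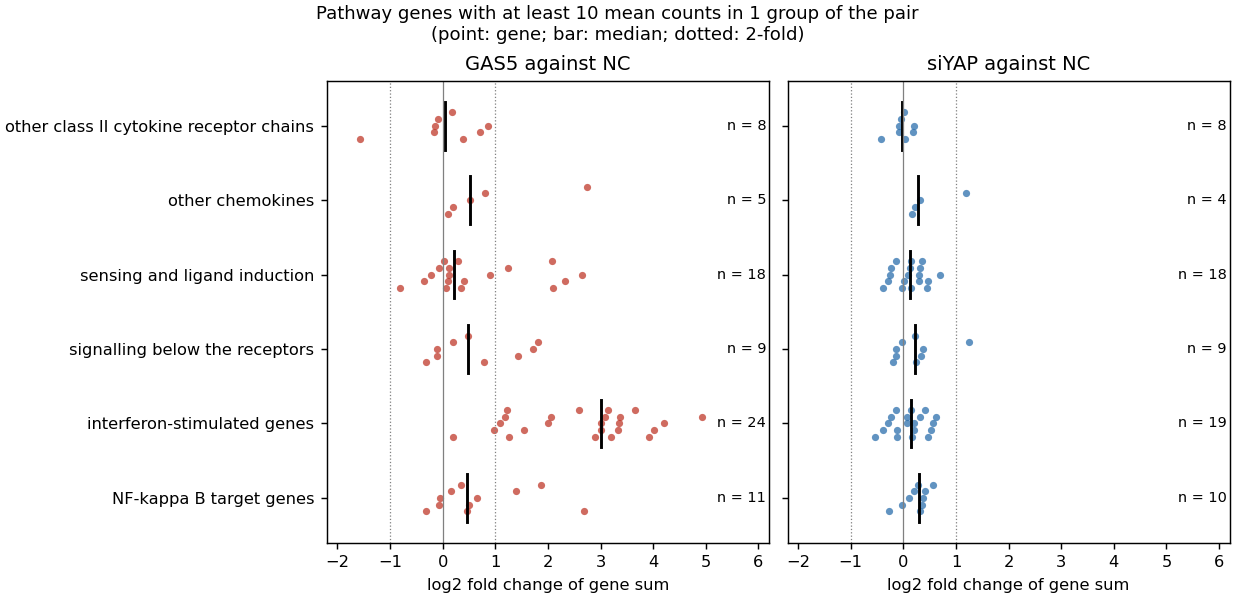
Log2 fold change of gene sums (x axis) in GAS5 (left) and siYAP (right) against NC for 6 gene lists (y axis), with genes of at least 10 mean counts in 1 group of the pair. Points are genes, black bars are medians and dotted lines mark 2-fold. Interferon-stimulated genes have a median of 3.01 in GAS5 and 0.14 in siYAP, and the lower point among the receptor chains in GAS5 is IL20RB.

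White blood cells make lambda interferons and CCL5, so their markers were read beside the members. PTPRC (CD45), the defining marker of white blood cells, was listed at 0 in every group, as were MS4A1, NKG7 and the plasmacytoid dendritic cell markers CLEC4C and LILRA4. The 10 white blood cell markers summed to 34.5, 80 and 36.5 mean counts in NC, GAS5 and siYAP. CD14 had 4.5, 37.5 and 3 mean counts and ITGAM 14.5, 33 and 20.5, and both were past 2-fold higher in GAS5 (log2 fold change 2.72 and 1.20), while CSF1R was at -0.47. CD14 passed the low-count minimum only through GAS5. Fibroblast and endothelium markers summed to 411, 591.5 and 590 mean counts, nearly all of them COL1A1 with 378.5, 556 and 540, and DCN was at 0 in every group. The part of these markers in the members' values was not tested.

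Genes whose pair of log2 fold changes lay nearest to a member were sought among 11907 genes with at least 50 mean counts on average. The measure was the Euclidean distance over the log2 fold changes in GAS5 and siYAP, which rest on 3 group means. Nearest to IFNLR1 were PPM1J, ZNF581 and IER5, at distances up to 0.0110. Nearest to IL10RB were FOCAD, HIVEP2 and TSPAN15, up to 0.00787. For the IFNL3 sum they were NAGPA, ZSCAN5A and TRMT61A, up to 0.0105. Within a distance of 0.1 lay 321 genes for IFNLR1, 716 for IL10RB and 199 for the IFNL3 sum, so these patterns were common.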

How the data were processed

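RNA of HCT116 cells (NC, GAS5 and siYAP, 2 libraries each) was sequenced after dUTP strand marking. TopHat2 2.1.1 is named in the submitters' processing notes, while the counting tool, genome build and annotation are not given in the sources used here. The authors deposited 2 tables of mRNA transcripts with estimated counts and FPKM, each as 1 mean per group, with an FPKM of 0 written as 0.001. Further columns hold the authors' log2 fold changes, p-values and FDR and were not used.

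Tables were joined by transcript identifier, and counts were summed by the symbol in the siYAP table. The 339 transcripts without a symbol (0.195 to 0.224% of counts) were left out. Gene sums were scaled for each pair by TMM (edgeR 4.0.16, R 4.3.3, filterByExpr), with DESeq2 1.42.0 size factors as an alternative, in Python 3.11.15. Steps were tested on simulated Poisson counts, only for genes of at least 50 mean counts in NC. That test does not cover IFNB1, IFNL1, IFNL2, CXCL10, CXCL11 and CCL5, which lie far lower in NC. The edgeR test needs single libraries and was not run. Folds against 0 set the low end of the treated interval over 3 counts in the group at 0. All members were named, up to 4 genes of each list by largest log2 fold change in GAS5, the 3 genes nearest to each member of at least 50 mean counts, and transcripts with the highest count or at 0 in 1 group and at least 10 in another. Members and lists were chosen with earlier results of these data known. Some genes of these lists are not reported here by name.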

Additional observations from a re-analysis of the deposited data

How the results depend on the processing

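No paired analysis was possible because single libraries have no values here, only 1 authors' mean for each group. Leaving out each replicate and the replicate block were therefore not run. The number of members past 2-fold higher in GAS5 was 3 with DESeq2 size factors, total count scaling, a prior count of 0.5, summed FPKM and the highest transcript. It was 5 without the low-count minimum, which adds IFNB1 and CXCL10 by the alternative's own construction, and 4 with Ensembl transcripts only, which adds IFNL3. In siYAP it was 0 under all 7 alternatives. For IFNL3, IFNLR1, IL10RB and CCL5, whose intervals are closed on both sides, 46 of 49 values under alternatives stayed within the counting interval. The 3 outside were IFNL3 with Ensembl transcripts only, and CCL5 with summed FPKM (log2 fold change 2.63) and with its highest transcript. In GAS5 the fitted log2 fold change ran from 2.19 to 4.05 for CCL5, 0.26 to 2.91 for IFNL3, 0.09 to 0.21 for IFNLR1 and -0.09 to -0.04 for IL10RB. In siYAP IFNLR1 ran from 0.24 to 0.41. For genes at 0 in NC the fitted value moves with the prior count or pseudocount and is no bound: it ran from 3.92 to 6.12 for IFNL1, 2.91 to 4.81 for IFNL2, 1.10 to 2.68 for IFNB1 and 1.00 to 2.91 for CXCL10. No alternative turned the direction of a member past 2-fold. With a limit of 3 counts at 0.0551 to 0.0588 CPM, IFNB1, CXCL10 and CXCL11 lie too low for a ratio to NC, and the spread between cultures is unknown for every value.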
